A study of Mus musculus with 12 samples.

Results

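A set of 42 genes that drive, mark or restrain cell division was followed across colon and urinary bladder of control mice and of mice in which the genes for YAP and TAZ were targeted in smooth muscle. Members were chosen by name, as textbook genes of the cell cycle, and each name matched 1 gene ID among the 54532 genes of the tables. They form 9 groups by role, from the G1 cyclins and their kinases to the CDK inhibitors. YAP (Yap1) and TAZ (Wwtr1) are co-activators of transcription at the end of the Hippo pathway, and the study asked what their loss does to mature smooth muscle. Tissue was taken from male mice of 5 to 7 weeks, 7 days after the first of 5 daily injections of 1 mg tamoxifen per mouse. All mice carried floxed Yap1 and Wwtr1 and all received tamoxifen. Y/T KO mice also carried Myh11-CreERT2, a tamoxifen-inducible Cre under the smooth muscle myosin heavy chain promoter, which directs deletion to smooth muscle, while Ctrl mice were Cre negative. Each of the 4 groups (Ctrl colon, Y/T KO colon, Ctrl bladder, Y/T KO bladder) held 3 libraries, and the 12 libraries came from 9 mice, since Ctrl mouse 788 and Y/T KO mice 783 and 780 gave both organs.

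A dividing cell passes from G1, where D-type cyclins with CDK4 and CDK6 release E2F factors, through S phase, where the MCM helicase opens DNA for copying, into mitosis, which is driven by cyclin B with CDK1 and ended by the anaphase-promoting complex. CDK inhibitors such as p21 (Cdkn1a) hold cells back. The colon renews its epithelium continuously from crypts, whereas bladder urothelium and adult smooth muscle seldom divide.

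Depth, taken from the ratio of coverage to FPKM, ran from 2.80 to 3.94 aligned gigabases per library. Organ identity matched the labels: urothelial markers summed to 4491 to 5971 TPM (a length-corrected share of a library's transcripts) in the bladder and 27.3 to 40.1 in the colon, and the 8 smooth muscle markers were present in every library. The goblet cell mucin Muc2 was listed at only 0.0288 to 0.917 TPM in the colon, and the other 9 genes of the colonocyte and goblet list brought their sum to 7900 to 11213 TPM there. Of the targeted genes, Yap1 ranged from 98.6 to 110 TPM in Ctrl bladder and from 69.4 to 72.1 in Y/T KO bladder (log2 difference -0.54, limma adjusted p = 0.0625), with overlapping genotypes in the colon (-0.17, adjusted p = 0.697). Wwtr1 was not lower in either organ (colon 0.18, bladder 0.24, adjusted p = 0.730 and 0.678), and the tables count whole genes rather than the floxed exons. Other tissue was present in part of the libraries: 8 skeletal muscle genes summed to 6657 and 6644 TPM in the Y/T KO bladders of mice 783 and 780 and to 806 TPM in Ctrl bladder 784, against 133 to 150 TPM in the other three bladders. The same 3 bladders held accessory gland transcripts (Pbsn and Defb50, 925 to 3964 TPM together, against 0.268 to 2.47). Pancreatic acinar genes summed to 5.40 to 108 TPM in the Ctrl colons against 0.344 to 1.08 TPM in Y/T KO colon. These lists were chosen after the values were seen, and bladder results are therefore given with and without those 3 libraries.

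Promoters are shown for the members on which the results turn, with the letters the cycle genes have in common. RefSeq promoters (GRCm38.p6, 250 bases before to 50 after the gene start) were found for 33 of the 42 members, 37 promoters in all. The motifs searched on both strands were the cell cycle homology region (CHR; TTTGAA or TTTAAA), the CCAAT box, the E2F words TTTCCCGC, TTTCGCGC, TTTGCCGC and TTTGGCGC, and CATTCC, the core word of the TEAD factors through which YAP and TAZ reach DNA. A CHR word was present in 15 of 16 promoters of mitotic members, in 3 of 9 of replication members and in 2 of 12 of the G1, G1/S and inhibitor members, against 27.6% of all 32851 promoters. CCAAT was present in 15, 8 and 4 of these promoters, against 37.4% of all. An E2F word was present in 1, 4 and 1, against 2.27% of all, and the 4 were Mcm3, Mcm5, Mcm6 and Mcm7. CATTCC was present in 3 of the 37 member promoters (Mcm3, Ube2c and Ccnd3), 8.11%, against 14.7% of all. A word is a match of letters, not evidence that a factor binds there.

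The 250 bases before the gene start follow 5′ to 3′ for the 4 members that differed most between organs in Ctrl mice, with every match of a motif above in capitals. The stretches are Birc5 at chr11:117848987-117849236 on the plus strand, Ube2c at chr2:164769679-164769928 on the plus strand, Mki67 at chr7:135716380-135716629 on the minus strand, Ccnb2 at chr9:70421555-70421804 on the minus strand.
Birc5: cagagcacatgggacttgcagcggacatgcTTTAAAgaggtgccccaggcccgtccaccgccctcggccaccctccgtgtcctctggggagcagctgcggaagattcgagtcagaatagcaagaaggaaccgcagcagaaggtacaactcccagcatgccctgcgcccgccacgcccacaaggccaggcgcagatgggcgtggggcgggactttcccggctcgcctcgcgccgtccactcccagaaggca
Ube2c: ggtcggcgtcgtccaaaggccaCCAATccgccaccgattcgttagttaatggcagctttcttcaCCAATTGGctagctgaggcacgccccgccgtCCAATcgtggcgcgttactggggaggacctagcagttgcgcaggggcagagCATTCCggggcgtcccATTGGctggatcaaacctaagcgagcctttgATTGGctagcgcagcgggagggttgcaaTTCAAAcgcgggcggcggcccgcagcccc
Mki67: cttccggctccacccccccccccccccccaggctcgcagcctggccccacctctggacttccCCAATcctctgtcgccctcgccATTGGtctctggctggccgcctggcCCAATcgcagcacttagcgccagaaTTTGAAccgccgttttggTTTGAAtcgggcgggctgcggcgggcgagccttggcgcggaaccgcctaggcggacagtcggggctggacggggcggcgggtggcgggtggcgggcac
Ccnb2: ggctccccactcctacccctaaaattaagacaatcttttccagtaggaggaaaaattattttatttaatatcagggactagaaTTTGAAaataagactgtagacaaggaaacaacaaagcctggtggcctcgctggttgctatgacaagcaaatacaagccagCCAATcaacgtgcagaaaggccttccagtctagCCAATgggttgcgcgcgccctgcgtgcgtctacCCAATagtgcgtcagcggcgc

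The same stretch is shown for the mitotic and replication members with the lowest p in the knockout comparisons of colon and bladder. The stretches are Plk1 at chr7:122159185-122159434 on the plus strand, Mcm2 at chr6:88898781-88899030 on the minus strand, Mcm5 at chr8:75109259-75109508 on the plus strand.
Plk1: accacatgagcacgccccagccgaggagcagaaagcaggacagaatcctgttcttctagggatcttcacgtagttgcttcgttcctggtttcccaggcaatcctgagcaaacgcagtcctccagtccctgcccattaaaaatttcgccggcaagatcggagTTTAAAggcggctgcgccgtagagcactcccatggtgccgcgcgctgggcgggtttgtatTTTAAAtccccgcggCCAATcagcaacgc
Mcm2: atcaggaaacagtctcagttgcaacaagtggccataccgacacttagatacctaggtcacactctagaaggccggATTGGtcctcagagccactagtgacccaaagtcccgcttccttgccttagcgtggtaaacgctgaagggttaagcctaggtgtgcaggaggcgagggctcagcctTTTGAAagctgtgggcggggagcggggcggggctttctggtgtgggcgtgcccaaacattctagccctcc
Mcm5: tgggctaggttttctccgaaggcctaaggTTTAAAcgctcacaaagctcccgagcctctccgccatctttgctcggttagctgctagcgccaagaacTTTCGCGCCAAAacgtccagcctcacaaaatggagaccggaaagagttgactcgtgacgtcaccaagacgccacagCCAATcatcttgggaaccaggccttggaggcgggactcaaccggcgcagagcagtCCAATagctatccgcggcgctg

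Within these stretches, CHR words lay closest to the start in Ube2c and Plk1 (from base -29) and farthest in Mcm5 and Birc5 (from bases -221 and -220). Bases are counted from the RefSeq promoter start, which can differ from the gene start in the deposited annotation. There Ube2c starts at 164769898, inside its stretch, and Mcm5 at 75109569, past the end of its stretch. Among mitotic members with a promoter, Birc5 was the one with no CCAAT, and Bub1 the one with no CHR word. The capitals in Mcm5 include TTTCGCGC and an overlapping E2F word on the other strand.

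Mitotic genes were several-fold higher in the colon than in the bladder, whichever the genotype. In Ctrl mice, 26 of the 41 members tested were called higher in the colon and 1, the cyclin D1 gene Ccnd1, was called lower (limma, Benjamini-Hochberg adjusted p under 0.05 over 19773 genes). Of all genes, 25.1% were called higher and 25.3% lower. In 29 members all Ctrl colons lay above all Ctrl bladders, and in 1 below (29.4% and 29.3% of all genes). The median log2 difference of the members was 1.28, or 2.44-fold, against 0.01 over all genes. The one member without a test, the spindle motor gene Kif11, was listed at 0 in 6 libraries and at up to 0.143 TPM in the others, although its partners in mitosis were well expressed, and such a value can be a failed estimate.

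**Figure D1:**
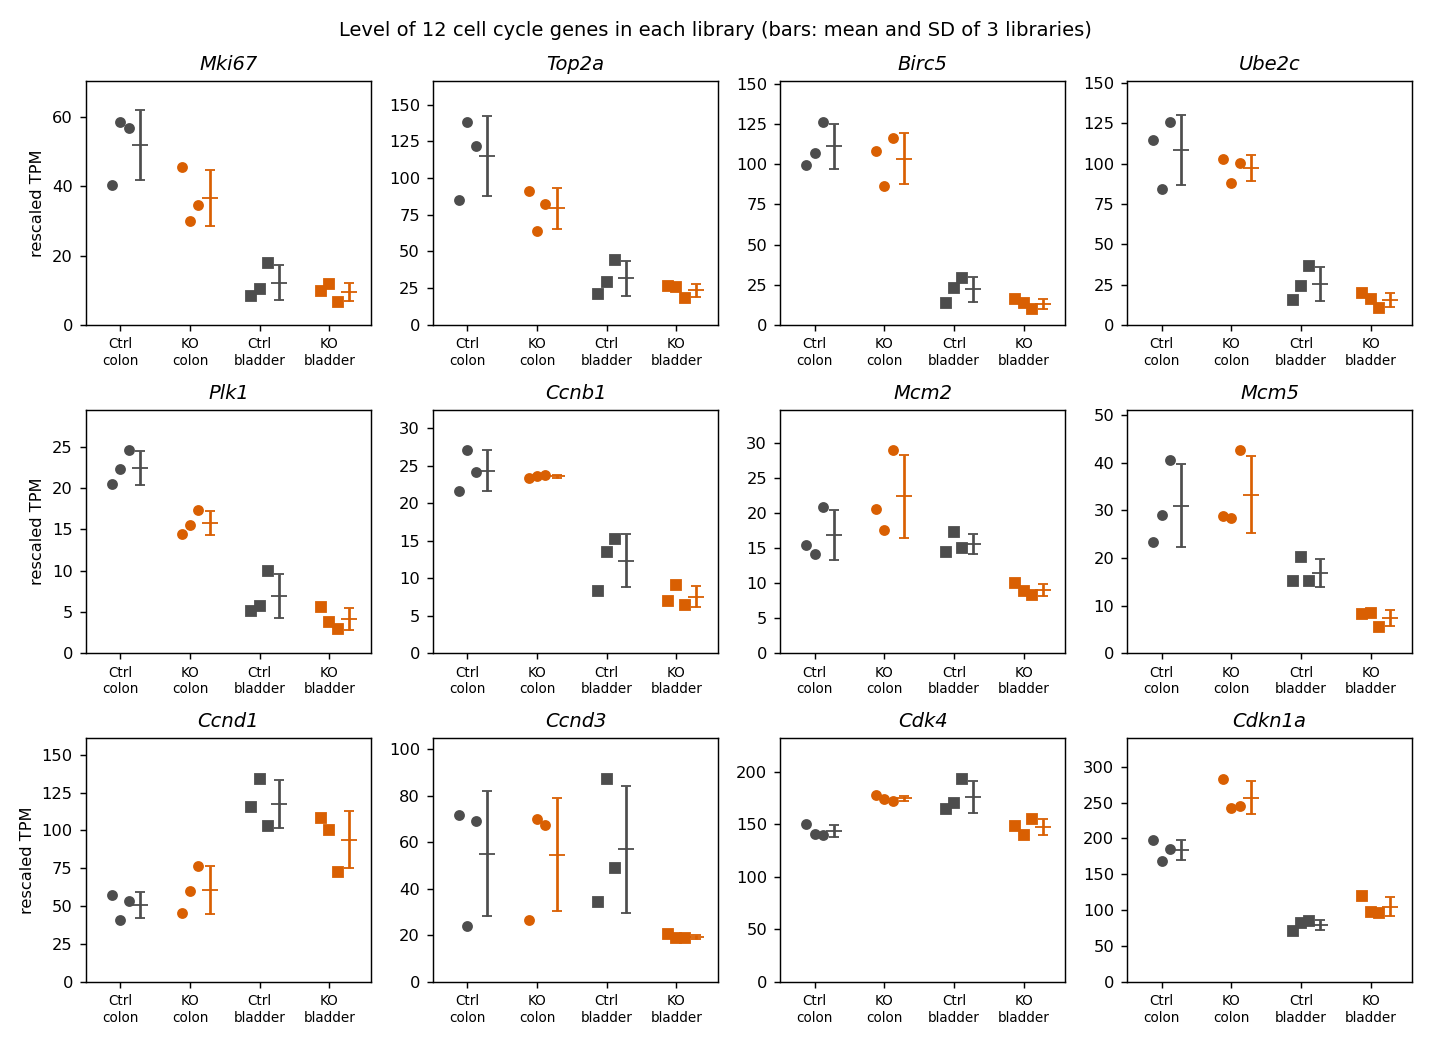
Level of 12 members in each library, as TPM rescaled by size factors within each organ, with axes that start at 0; circles are colon, squares are bladder, gray is Ctrl, orange is Y/T KO, and bars give the mean and SD of 3 libraries. Mki67, Top2a, Birc5, Ube2c, Plk1 and Ccnb1 stood higher in all 6 colons than in all 6 bladders, while Mcm2 and Mcm5 were lower in the 3 Y/T KO bladders than in any other library.

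Mki67 encodes the Ki67 antigen, a nuclear protein of cycling cells. The Ctrl colons of mice 788, 786 and 787 held 40.0, 65.0 and 55.2 TPM of it, and the Ctrl bladders of mice 784, 785 and 788 held 8.01, 10.4 and 18.7 TPM. All Ctrl colons were above all Ctrl bladders, a log2 difference of 2.43 ± 0.30 (SE, n = 3 per group) or 5.38-fold (limma adjusted p = 4.6e-05). Top2a, the topoisomerase that untangles chromosomes before they part, stood at 84.6, 153 and 118 TPM in the Ctrl colons against 20.7, 29.5 and 46.1 TPM in Ctrl bladder, 4.53-fold apart (adjusted p = 4.97e-05). Among Ctrl libraries, mouse 788 gave the lowest colon and the highest bladder value of both genes.

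The largest difference was in Birc5, which encodes survivin of the chromosomal passenger complex, with 98.9, 119 and 123 TPM in the Ctrl colons against 13.5, 22.9 and 30.6 TPM in Ctrl bladder (2.67 ± 0.26, 6.37-fold, limma adjusted p = 6.18e-06). Ube2c, the ubiquitin-conjugating enzyme of the anaphase-promoting complex, had 114, 93.1 and 122 TPM in the colon and 15.2, 24.2 and 37.8 TPM in the bladder (5.40-fold, adjusted p = 3.7e-05). Ccnb2, a B-type cyclin, had 63.5, 71.3 and 71.4 TPM against 10.9, 17.02 and 28.5 TPM (4.69-fold, adjusted p = 4.37e-05). None of the 3 genes overlapped between organs. The troponin gene Tnnc2 overlaps Ube2c on the other strand and was at 0 to 0.311 TPM in the colon, 26.5 to 175 in Ctrl bladder and 24.4 to 1474 in Y/T KO bladder, the opposite order to Ube2c. Gm44985 overlaps the mitotic member Plk1 on the other strand and had the same order as Plk1. It was at 81.6 to 131 TPM in the colon and 0.577 to 3.17 TPM in the bladder, and its part in the Plk1 values was not tested.

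In Ctrl mice, all 19 mitotic members tested (markers, S to M cyclins with Cdk1, kinases and checkpoint, anaphase-promoting complex, centromere and spindle) were called higher in the Ctrl colon, by log2 differences from 1.28 to 2.67. Their summed level was 789 to 1004 TPM in the Ctrl colons against 187 to 396 TPM in Ctrl bladder. Of the 9 replication members 5 were called higher (Mcm5, Mcm6, Mcm7, Pcna and Tyms), and their median was 0.76. Tyms, the enzyme that makes thymidylate, was at 26.3 to 35.6 TPM in the Ctrl colons against 9.53 to 13.4 in Ctrl bladder and had the largest difference of this group (1.68). None of the 4 G1/S members (Ccne1, Ccne2, Cdk2 and E2f1) was called, with a median of 0.53, and their 4 unadjusted p-values were above 0.05 as well.

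Genes of G1 had another order. Ccnd1 stood at 57.0, 45.4 and 51.8 TPM in the Ctrl colons against 113, 134 and 107 TPM in Ctrl bladder, so that each bladder was above each colon (1.92-fold, limma adjusted p = 0.00323). Ccnd2, a second D-type cyclin, was called higher in the colon, at 108, 94.8 and 79.4 TPM against 61.3, 91.6 and 59.3 TPM (0.69 ± 0.17, adjusted p = 0.0064), with groups that overlapped in the deposited TPM and not after rescaling. The kinase genes Cdk4 and Cdk6 differed by -0.01 and -0.21 and were not called. Cdk4 is read from the strand opposite Tspan31, which was at 114 to 133 TPM throughout.

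Among CDK inhibitors, Cdkn1a (p21) was the only one called in Ctrl mice, and like the mitotic genes it was higher in the colon, at 196, 187 and 180 TPM against 69.5, 81.9 and 88.7 TPM (2.82-fold, limma adjusted p = 1.7e-06). Cdkn1b (p27), Cdkn1c (p57) and Cdkn2c (p18) differed by 0.68, -0.21 and 0.00, with ranges of 37.6 to 57.6, 5.27 to 5.82 and 16.7 to 24.9 TPM in the Ctrl colons against 25.9 to 49.4, 6.33 to 10.9 and 18.1 to 28.9 TPM in Ctrl bladder. The ranges of Cdkn1b and Cdkn2c overlapped between organs, while those of Cdkn1c did not in the deposited TPM but did after rescaling. E2f1, the activator of S phase genes, was among the 4 lowest members, at 4.25, 5.04 and 6.85 TPM against 5.30, 7.62 and 9.65 TPM with overlap (-0.20), and was not called.

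**Figure D2:**
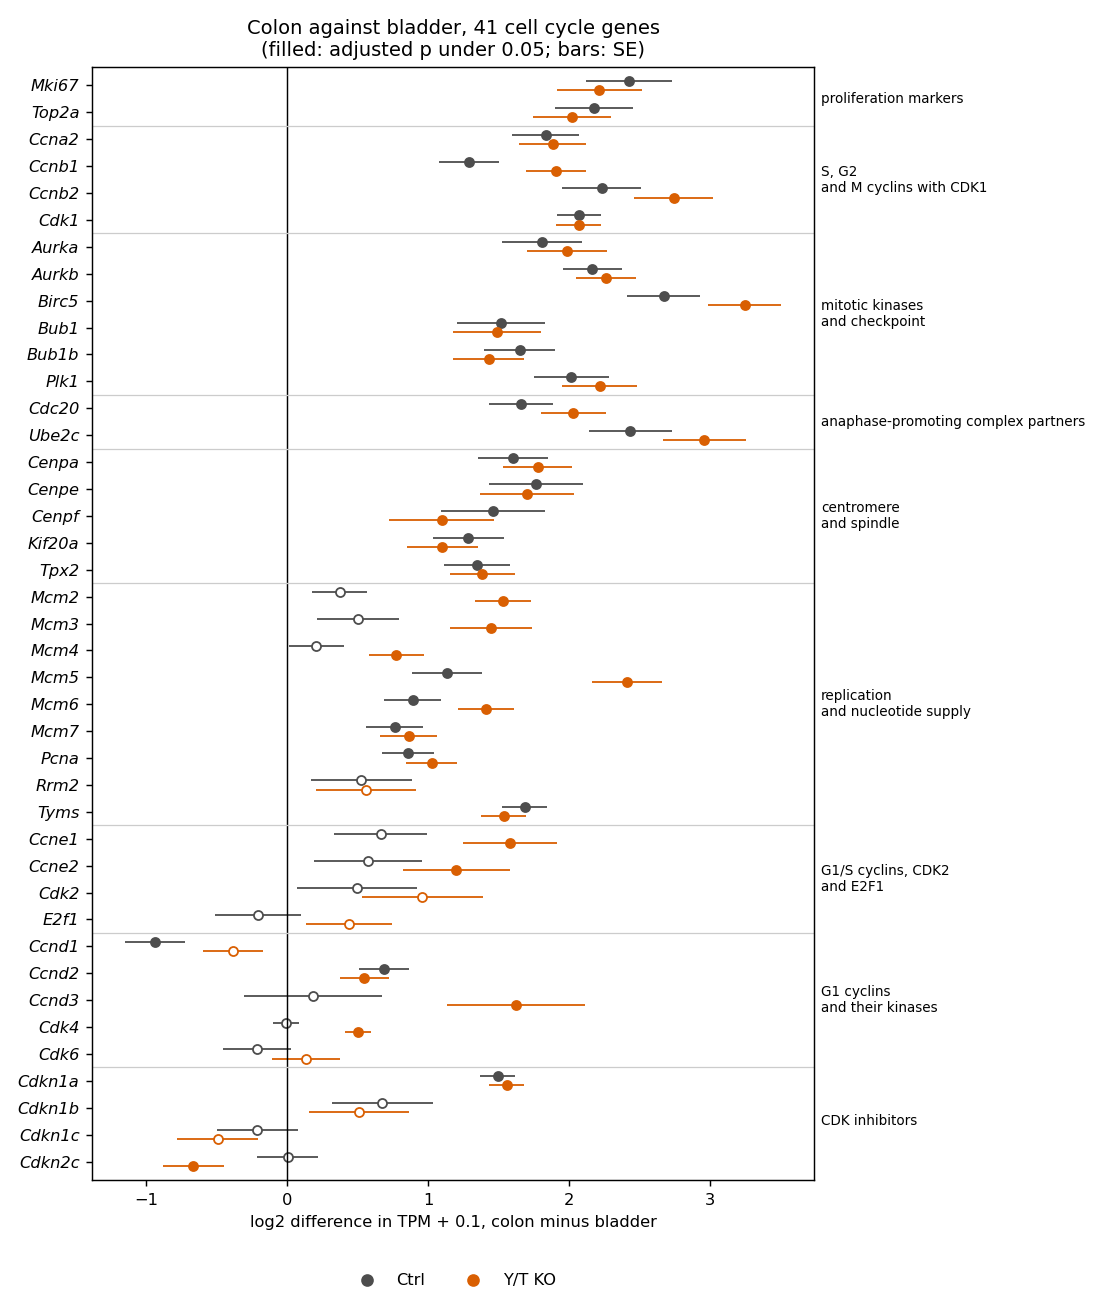
Colon minus bladder on the log2(TPM + 0.1) scale for the 41 members tested, in order of role, in Ctrl (gray) and Y/T KO (orange), with SE; filled points had a limma adjusted p under 0.05. Mitotic members lay to the right in both genotypes, from 1.28 to 2.67 in Ctrl and from 1.10 to 3.25 in Y/T KO, while G1 cyclins and CDK inhibitors lay on both sides of 0.

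In Y/T KO mice, 33 members were called higher in the colon and 1, Cdkn2c, lower (25.8% and 25.6% of all genes), with a median of 1.49. All 19 mitotic members were again called higher, with a median of 1.98. Of replication members 8 of 9 were called (median 1.41), of G1/S members 2 of 4 (Ccne1 and Ccne2, group median 1.08), and of G1 members Ccnd2, Ccnd3 and Cdk4. Ccnd1, called lower in the Ctrl colon, was not called here (-0.38, limma adjusted p = 0.154). In the knockouts Birc5 was at 108, 86.7 and 114 TPM in the colon against 16.8, 13.0 and 9.98 TPM in the bladder, Ube2c at 103, 88.7 and 98.5 against 20.4, 15.2 and 10.7, and Ccnb2 at 69.0, 67.7 and 52.99 against 14.1, 11.7 and 8.71. None of the 3 overlapped between organs. E2f1, at 5.89, 4.87 and 8.66 TPM against 7.05, 6.15 and 4.04 TPM, did. Organs did not overlap for 34 higher members and 1 lower (29.8% and 29.4% of all genes). Cdkn2c reached 19.3, 16.6 and 13.5 TPM in the knockout colons against 29.5, 37.7 and 27.5 TPM in the knockout bladders (1.59-fold lower, limma adjusted p = 0.0242), a call that was lost without Y/T KO colon 783, Y/T KO colon 780 or Y/T KO bladder 783. Left out together, bladders 784, 783 and 780 gave the same counts in Ctrl (26 higher, 1 lower), where 8312 of 19032 genes were called in either direction. The median in Ctrl was then 1.05, with Mki67 at 2.16, and the median in Y/T KO was 1.33. In these bulk samples fewer dividing cells and less RNA per cell cannot be told apart. Cell type markers differed between Ctrl organs as well. All 9 colonocyte and goblet genes tested were called higher in the colon, as were 4 of 6 epithelial genes, with Krt18 and Cldn4 called lower. The 10 crypt base and progenitor genes summed to 190 to 219 TPM in Ctrl colon against 282 to 313 TPM in Ctrl bladder. Smoc2 and Tnfrsf19 stood higher in each Ctrl bladder than in each Ctrl colon, and Ascl2, Sox9, Ephb2, Cdca7 and Rnf43 stood higher in each Ctrl colon. All 8 smooth muscle, 7 urothelial and 5 endothelial genes were called lower in the colon, as were 4 of 5 fibroblast, 4 of 5 leukocyte, 4 of 5 macrophage and 4 of 6 enteric glia and neuron genes, and 0 of 5 T cell genes were called (limma, 0 also at an unadjusted p under 0.05). Their part in the members' difference was not tested. The organ and genotype comparisons share the Ctrl libraries, and the organ comparisons share mice 788, 783 and 780, so their values stand side by side only.

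In the colon, no member was called between Y/T KO and Ctrl, where 0.08% of 17500 genes were called lower and 0.0571% higher. By limma at an unadjusted p under 0.05, 5 members were lower (Mki67, Top2a, Bub1, Plk1 and Ccnd2; 4.59% of all genes) and 2 higher (Cdkn1a and Cdk4; 5.14% of all genes). Of 41 members 26 had lower and 15 higher values (49.1% and 50.9% of all genes). Values leaned down for the genes of mitosis, all 19 of them negative with a median of -0.32, while the median was 0.11 for replication members and 0.30 for the G1/S members, and 0.01 for all genes. The lowest adjusted p among the members was 0.372.

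The Y/T KO colons of mice 759, 783 and 780 held 45.7, 30.1 and 33.9 TPM of Mki67, against 40.0, 65.0 and 55.2 TPM in Ctrl. The log2 difference was -0.50 with a 95% interval from -1.002 to -0.01 (limma adjusted p = 0.510). Ctrl colon 788 lay within the Y/T KO range, so the genotypes overlapped. Top2a had 91.3, 64.6 and 81.0 TPM in the knockout colons against 84.6, 153 and 118 TPM, again with Ctrl colon 788 among the knockouts (-0.52, adjusted p = 0.505).

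3 members were lower in each Y/T KO colon than in each Ctrl colon after rescaling, against 7.87% of all genes. Plk1, a kinase that builds the spindle, was at 20.3, 24.7 and 23.8 TPM in the controls against 14.5, 15.6 and 17.1 TPM in Y/T KO (1.42-fold lower, limma adjusted p = 0.418). Bub1, a kinase of the spindle checkpoint, was at 10.5, 20.3 and 13.1 TPM against 10.1, 7.80 and 10.1 TPM (1.47-fold lower, adjusted p = 0.512). Ccnd2 was the third, at 108, 94.8 and 79.4 TPM against 74.2, 64.0 and 71.2 TPM (1.30-fold lower, adjusted p = 0.492).

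Cdkn1a and Cdk4 were the 2 members higher in every Y/T KO colon, against 8.24% of all genes. Cdkn1a was at 196, 187 and 180 TPM in the controls against 283, 243 and 240 TPM in the knockouts, 1.40-fold apart (0.48 ± 0.14, limma adjusted p = 0.372). Cdk4 was at 149, 156 and 135 TPM in the controls against 177, 175 and 169 TPM in the knockouts (1.22-fold, adjusted p = 0.510). The third lowest p among members with higher values was that of Mcm2, a subunit of the replicative helicase, at 15.4, 15.7 and 20.2 TPM against 20.5, 17.7 and 28.4 TPM, with overlapping groups (adjusted p = 0.620).

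The other G1 cyclins and inhibitors did not separate the colons. Ccnd1 reached 45.2, 60.4 and 75.0 TPM in the knockouts (0.24, limma adjusted p = 0.733). Ccnd3, the third D-type cyclin, was at 71.3, 26.7 and 67.1 TPM in the controls against 26.5, 70.2 and 66.2 TPM in Y/T KO, so that 1 library of each genotype (Ctrl 786 and Y/T KO 759) lay far below the rest. The difference was 0.02 ± 0.55. The deposited coverage per aligned gigabase had the same pattern (4.43, 1.29 and 4.43 against 1.51, 4.56 and 4.47). It comes from the same StringTie output as TPM and is not a separate measurement. Cdk6 (5.47, 8.56 and 6.31 against 8.35, 7.14 and 4.71 TPM), Cdkn1b (38.0, 37.6 and 57.6 against 62.2, 23.2 and 34.3 TPM), Cdkn1c (5.82, 5.27 and 5.51 against 4.79, 6.49 and 9.30 TPM) and Cdkn2c (16.7, 24.9 and 17.7 against 19.3, 16.6 and 13.5 TPM) overlapped as well.

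**Figure D3:**
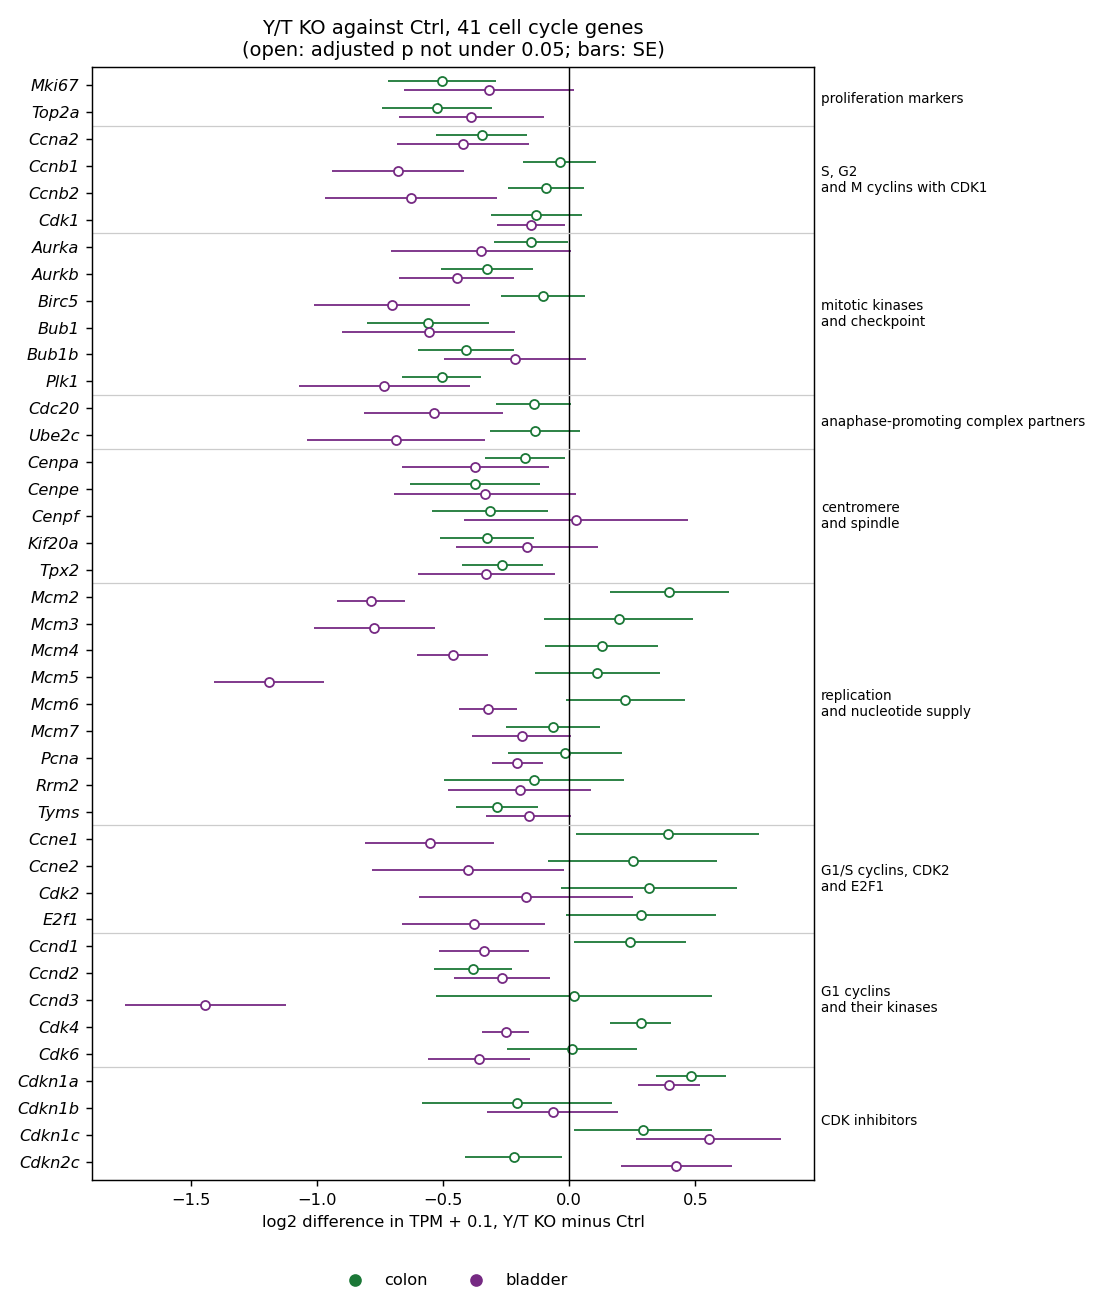
Y/T KO minus Ctrl on the log2(TPM + 0.1) scale for the 41 members tested, in order of role, in colon (green) and bladder (purple), with SE. All points are open, since no limma adjusted p was under 0.05; mitotic members lie left of 0 in both organs apart from Cenpf in the bladder (0.03), and Mcm2 to Mcm6 lie left of 0 in the bladder and right of 0 in the colon.

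In the bladder too, no member was called, where 0.219% of 18237 genes were called lower and 0.0823% higher. Of 41 members 37 had lower and 4 higher values in the knockouts (49.8% and 50.2% of all genes), and their median log2 difference was -0.35 against 0.00 over all genes. By limma at an unadjusted p under 0.05, 8 members were lower (Ccnb1, Ccnd3, Cdk4, Mcm2, Mcm3, Mcm4, Mcm5 and Mcm6; 8.2% of all genes) and 1 was higher (Cdkn1a; 6.64% of all genes). The groups did not overlap for 8 lower members (11.4% of all genes) and 1 higher member (10.6%), and 6 of the 8 belonged to replication.

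Mcm2 and Mcm5, of the MCM helicase, had the lowest p-values. Mcm2 was at 14.2, 17.3 and 15.6 TPM in Ctrl bladder (mice 784, 785 and 788) and 10.4, 8.51 and 8.31 TPM in Y/T KO bladder (mice 782, 783 and 780), 1.72-fold lower (-0.79 ± 0.14, limma adjusted p = 0.101). Mcm5 had 14.9, 20.3 and 15.7 TPM against 8.72, 8.13 and 5.51 TPM, 2.28-fold lower (-1.19 ± 0.22, adjusted p = 0.106). Mcm3 had 16.7, 27.5 and 24.0 TPM against 15.7, 14.3 and 9.81 TPM (1.71-fold lower, adjusted p = 0.234). The Y/T KO values of the 3 genes were below every Ctrl value, as they were for Mcm4 and Mcm6 and, after rescaling, for the sliding clamp gene Pcna.

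Without bladders 784, 783 and 780 the comparison rested on 2 Ctrl libraries and 1 Y/T KO library, fitted with the 6 colons, and the lone knockout was assumed to vary like the other groups. Values were lower for 37 of 41 members (50.9% of all genes), with Cenpf now lower and Mcm7 higher, and the median was -0.44. With 1 knockout library, only the sizes of the differences are given. Ccnb1 was at -1.01, Mcm5 at -1.05, Mcm2 at -0.68, Mcm3 at -0.74, Birc5 at -0.68 and Aurkb at -0.74. Cdkn1a was higher, at 0.53.

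Ccnd3 (chr17:47505051-47599691, plus strand, GRCm38) had the largest difference of any member in the bladder, at 33.5, 87.5 and 51.1 TPM in the controls against 21.2, 18.3 and 19.1 TPM in Y/T KO, 2.72-fold lower (-1.44 ± 0.32, limma adjusted p = 0.148). The 3 knockouts were close together and below each control, while the controls ranged widely. It overlaps Bysl on the opposite strand (9.61 to 17.1 TPM in the bladder). Ccnd1 (113, 97.1 and 73.2 TPM in Y/T KO bladder, -0.34) and Ccnd2 (53.9, 61.6 and 57.5 TPM, -0.27) overlapped the Ctrl values given above. Cdk4 did not overlap, at 161, 170 and 201 TPM against 155, 135 and 156 TPM (1.19-fold lower, adjusted p = 0.294). Cdk6 was at 7.56, 11.2 and 9.37 TPM in the controls against 7.74, 8.05 and 6.03 TPM in Y/T KO (-0.36, adjusted p = 0.455).

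Mki67 in the bladder was at 8.01, 10.4 and 18.7 TPM in the controls against 10.3, 11.4 and 6.77 TPM in Y/T KO, with overlapping groups (-0.32, 95% interval -1.12 to 0.49, limma adjusted p = 0.696). Top2a was at 20.7, 29.5 and 46.1 TPM against 27.6, 24.7 and 18.4 TPM, overlapping in the same way (-0.39, adjusted p = 0.573). The mitotic members had a median of -0.39, with 18 of 19 lower and Ccnb1 alone at an unadjusted p under 0.05. Ccnb1 had 8.16, 13.6 and 15.8 TPM against 7.35, 8.81 and 6.48 TPM, and Plk1 had 4.99, 5.79 and 10.4 TPM against 5.81, 3.68 and 2.96 TPM.

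Of the 4 inhibitors in the bladder, 3 had higher values and Cdkn1b a lower one. Cdkn1a was at 69.5, 81.9 and 88.7 TPM in the controls against 126, 94.2 and 97.3 TPM in the knockouts, without overlap (1.32-fold higher, 0.40 ± 0.12, limma adjusted p = 0.234). Cdkn1c, at 10.9, 6.56 and 6.33 TPM against 9.25, 10.7 and 14.6 TPM, and Cdkn2c, at 28.9, 18.1 and 24.0 TPM against 29.5, 37.7 and 27.5 TPM, had differences of 0.55 and 0.42 with overlapping groups. Cdkn1b, at 27.0, 25.9 and 49.4 TPM against 28.1, 28.0002 and 38.4 TPM, was at -0.07. None was called. Cdkn1a was also higher without overlap in the colon, where 8.24% of all genes were so, against 10.6% in the bladder. The share of all genes that were so in both organs is not given here. Y/T KO mice 783 and 780 and Ctrl mouse 788 are shared by the 2 comparisons.

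**Figure D4:**
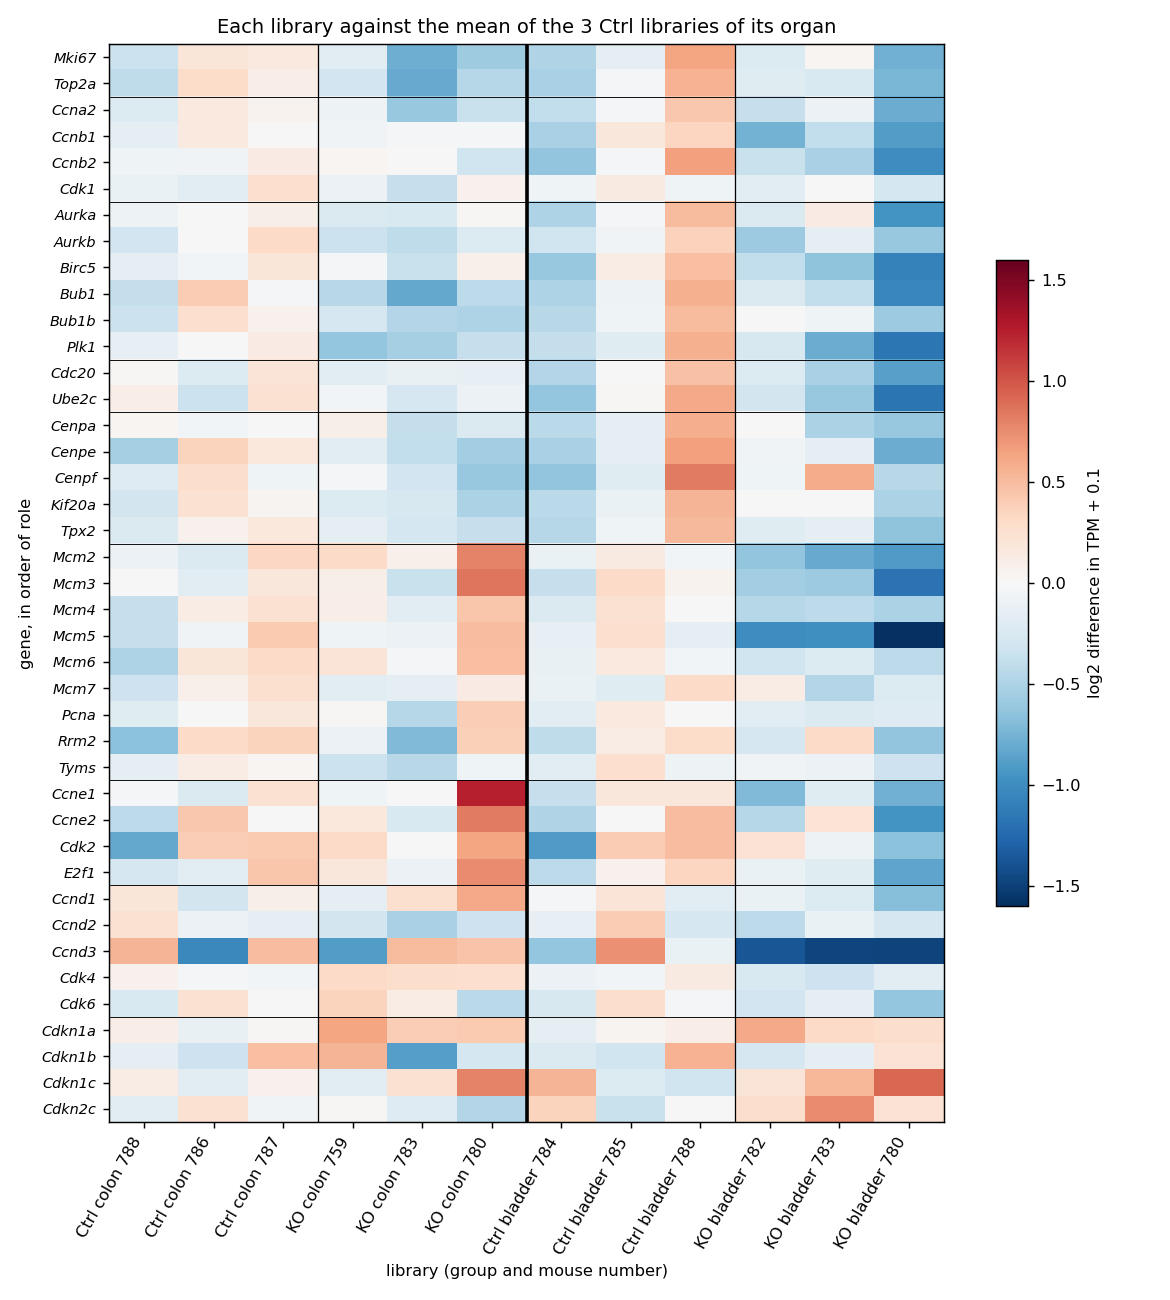
Log2 difference of each library from the mean of the 3 Ctrl libraries of its organ, for the 41 members tested in order of role (red higher, blue lower; the thick line parts colon from bladder). Ctrl bladder 788 is red in the mitotic rows except Cdk1 and Y/T KO bladder 780 is blue in all of them, while Y/T KO colon 780 is red through the MCM and G1/S rows.

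Single libraries often stood at the extremes. Ctrl bladder 788 had the highest of the 6 bladder values for 18 of 19 mitotic members, and Y/T KO bladder 780 the lowest for 18 of 19. Summed over these members, Ctrl bladders reached 187, 262 and 396 TPM and Y/T KO bladders 235, 212 and 155 TPM, so that Y/T KO bladders 782 and 783 lay between the controls. The lowest sums were those of bladders 780, 784 and 783, the libraries that held skeletal muscle and accessory gland transcripts. The part of that tissue in the order of the libraries was not tested. The median over all members moved from -0.35 to -0.20 without Ctrl bladder 788, to -0.22 without Y/T KO bladder 780 and to -0.59 without Ctrl bladder 784. For 7 of the 9 replication members the highest bladder value was instead that of Ctrl 785.

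In the colon, Ctrl 786 and 787 were the highest of 6 for 9 mitotic members each, and Y/T KO 783 and 780 the lowest for 9 and 6. The sums were 789, 1004 and 948 TPM in the controls against 810, 678 and 743 TPM in the knockouts, with Ctrl 788 below Y/T KO 759. Y/T KO colon 780 had the highest value of 7 of the 9 replication members, although the bladder of the same mouse had the lowest of 7 of 9. The median over all members moved from -0.13 to -0.01 without Ctrl colon 787 and to -0.04 without Y/T KO colon 783.

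No member had a called difference between its knockout effects in the 2 organs (interaction term over 12 libraries; 0.0253% of all genes called lower and 0.0354% higher). By limma at an unadjusted p under 0.05, 0 members had a lower effect in the colon (5.45% of all genes) and 4 a higher one (6.43%): Mcm2 (1.16 ± 0.28), Mcm5 (1.28 ± 0.35), Mcm3 (0.94 ± 0.41) and Cdk4 (0.51 ± 0.13). Their adjusted p-values were 0.191, 0.233, 0.403 and 0.217. Without bladders 784, 783 and 780, which left 1 Y/T KO bladder, the values of Mcm2, Mcm5, Mcm3 and Cdk4 were 1.06, 1.15, 0.91 and 0.55. For that fit only sizes are given.

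Levels of cell type markers differed beside these values, with none of the lists below holding a gene called by limma. All 8 smooth muscle genes had lower values in both organs (medians -0.50 and -0.84, with 6 and 5 of them at an unadjusted p under 0.05), with sums of 7484 to 8200 TPM in Ctrl colon, 4899 to 5737 in Y/T KO colon, 34959 to 45618 in Ctrl bladder and 16676 to 30536 in Y/T KO bladder. In the colon 8 of 10 crypt base genes had higher values (sums of 190 to 219 and 248 to 283 TPM). Its highest gene, Smoc2, was at 54.9 to 59.8 TPM in Ctrl colon and 83.2 to 86.5 TPM in Y/T KO colon. The crypt base list was not particular to the colon, with sums of 282 to 313 TPM in Ctrl bladder and 273 to 362 TPM in Y/T KO bladder. All 5 leukocyte genes also had higher values in the Y/T KO colon (163 to 202 and 178 to 288 TPM). All 5 macrophage genes had higher values as well, but their Y/T KO sums of 1159 to 1422 TPM lay inside the Ctrl range of 808 to 1580 TPM. Of 5 T cell genes tested 4 had higher values, each at an unadjusted p under 0.05 (sums of 11.5 to 12.5 and 15.4 to 19.7 TPM). Surface colonocyte and goblet genes had sums of 9464 to 11213 TPM in the controls against 7900 to 9285 TPM, with 4 of 9 lower at an unadjusted p under 0.05. In the bladder all 7 urothelial genes had lower values (5457 to 5971 and 4491 to 5772 TPM), as did all 5 leukocyte genes (320 to 471 and 231 to 382 TPM). Without the bladders high in skeletal muscle and accessory gland transcripts, Y/T KO bladder 782 remained against Ctrl bladders 785 and 788. Its urothelial sum of 5772 TPM lay between theirs (5971 and 5740 TPM). Its leukocyte sum of 382 TPM was below theirs (471 and 398 TPM), as was its smooth muscle sum (30536 against 45618 and 41997 TPM). The lower urothelial sums, 4822 and 4491 TPM, were those of Y/T KO bladders 783 and 780. The part of these cells in the members' values was not tested.

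A wider set of 122 cell cycle genes was measured in the same fits. None was called in either genotype comparison, and by limma an unadjusted p under 0.05 was found for 16 lower and 2 higher genes in the colon (4.59% and 5.14% of all genes) and for 20 and 3 in the bladder (8.2% and 6.64%). Values were lower for 92 of 120 tested genes in the colon (median -0.22; 49.1% of all genes were lower) and 97 of 119 in the bladder (-0.32; 49.8%). The 52 genes of mitosis had medians of -0.35 and -0.42, and the genes of replication medians of -0.16 and -0.50, whereas the replication members had a median of 0.11 in the colon. The 15 inhibitors and p53 targets tested had medians of -0.01 and -0.21, and the 4 member inhibitors 0.04 and 0.41. Between Ctrl organs, 88 of 120 were called higher in the colon and 4 lower (25.1% and 25.3% of all genes).

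The largest organ differences of each of these lists were again higher in the colon. In replication they were Orc1, a subunit of the origin recognition complex (3.87, 4.82 and 5.80 TPM in Ctrl colon against 0.596, 0.444 and 0.581 TPM in Ctrl bladder), and Pclaf, a partner of PCNA (log2 difference 2.15). In mitosis they were Melk (2.67) and Cdca3 (2.54), and among regulators of transcription the E2F genes E2f2 (13.4, 17.3 and 16.5 TPM against 1.88, 2.66 and 2.48 TPM) and E2f8 (2.57). Among inhibitors and p53 targets they were the p15 gene Cdkn2b (83.6, 63.3 and 73.9 TPM against 14.7, 23.7 and 21.9 TPM) and the phosphatase gene Cdkn3 (2.12). All 8 had a limma adjusted p of at most 0.000778.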

How the data were processed

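The authors sequenced 12 TruSeq Stranded mRNA libraries. The submitters' processing notes name bcl2fastq, FastQC, HISAT2, StringTie, DESeq2 and build GRCm38, and versions are not given in the sources used here. The deposited tables give TPM, FPKM and coverage (a signal of mean reads per base) per gene, made by the authors with StringTie. The authors' FPKM scales fragments by length and library, and TPM rescales it to a fixed sum. Read counts were not used here.

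Rows of 1 gene ID were summed, and coordinates matched GENCODE M21 for 41 of 42 members. TPM was divided by median-of-ratios size factors (0.966 to 1.11 within an organ, 0.878 to 1.14 over 12 libraries). Genes that reached 0.5 TPM in 3 or more libraries were fitted as log2(TPM + 0.1), which understates changes of low genes, with limma 3.58.1 in R 4.3.3 (trend and robust, two-sided), and a Benjamini-Hochberg adjusted p under 0.05 was called. Genotype was fitted within each organ, and organ and interaction over all libraries. The script was tested on simulated data. Python 3.11.15, pandas 2.3.3 and matplotlib 3.10.9 were used. All 42 members could be named. Every library's value is given for Mki67 and Top2a, the 3 lowest p in each direction, the 4 largest organ differences each way, G1 cyclins and CDK inhibitors. Members and lists were chosen with earlier results of these data known. Whether StringTie counted by strand is not given, and 12 members overlap a gene of the opposite strand that reaches 1 TPM. Reads of Ccnb1 and Pcna can also fall on pseudogenes. Mouse numbers pair 3 colons with 3 bladders (residual correlations -0.00913, 0.0675 and 0.0437). Alternatives were other pseudocounts, filters, scales and options, a mouse block, each library left out, and, chosen after seeing the data, coverage per base and 9 libraries. One marker list is not reported here.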

Additional observations from a re-analysis of the deposited data

How the results depend on the processing

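For the single genes named above, 614 values under the other scales, filters, fits and library sets kept their direction and side of the threshold, while 14 changed direction and 1 lost its call. With 1 library left out, 475 values kept both and 29 changed direction. No member was called between genotypes, so for those values keeping the side means staying uncalled. With TPM as deposited, where the median of all genes moved to -0.24 (Ctrl) and -0.26 (Y/T KO) between organs, the members' median fell to 1.03 in Ctrl and 1.22 in Y/T KO, 3 members were called lower in Y/T KO colon, and differences changed sign for Ccnd3 (-0.018 in colon genotype, -0.0760 between Ctrl organs), Cdk6 (-0.025 in colon genotype) and Cdkn2c (-0.26 between Ctrl organs); Ccnd2 lost its call between Ctrl organs (0.43, limma adjusted p = 0.0554). FPKM put Cdkn2c at -0.12 between Ctrl organs. Coverage per base put Cdkn1b at 0.00215 in the bladder and Cdk4 at 0.042 between Ctrl organs. A single fit of 12 libraries put Ccnd3 at -0.00511 and Cdk6 at -0.012 in the colon. The replicate block by mouse (within-mouse correlation 0.0514) changed no call, with Ccnd3 at -0.00557, Cdk6 at -0.0117 and Cdkn2c between Ctrl organs at -0.000265. With 9 libraries, Ccnd3 was at -0.15 and Cdkn1c at 0.038 between Ctrl organs, and Cdkn2c was at -0.54 between Y/T KO organs, where 1 bladder was left. The cause of these changes was not tested.

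With 1 library left out, the colon genotype difference ran from -0.16 to 0.24 for Cdk6, -0.080 to 0.32 for Mcm5, -0.053 to 0.27 for Mcm4, -0.023 to 0.37 for Mcm6, -0.14 to 0.47 for Mcm3, -0.50 to 0.48 for Ccnd3, -0.12 to 0.038 for Ccnb1 and -0.58 to 0.13 for Cdkn1b. In the bladder it ran from -0.56 to 9.35e-05 for Mki67 (the latter without Ctrl 788) and from -0.23 to 0.21 for Cdkn1b. Between Ctrl organs it ran from -0.13 to 0.70 for Ccnd3, -0.18 to 0.18 for Cdkn2c, -0.059 to 0.059 for Cdk4 and -0.37 to 0.055 for Cdkn1c, and 0 to 1 members were called lower in Y/T KO colon. With 3 libraries a group, an exact permutation test cannot go below 0.1, and 1 library can decide a direction.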
